A study of Mus musculus with 8 samples.

Results

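The comparison set Cdx2-GFP-positive cells against mesoderm progenitors, which are a pair of cell states that had both been exposed to BMP4 and that both held Cdx2 transcripts. It used 3 of the 8 RNA-seq libraries of the series, chosen by their labels: 1 of the sorted cells and 2 of mesoderm progenitors, from days 3 and 4. The sorted cells came from a mouse embryonic stem cell (mESC) line whose Cdx2 expression is reported by green fluorescent protein (GFP). They were grown in the medium called 2iJ+B-A, which holds 2i, a JAK inhibitor, BMP4 and ALK5 inhibitor II. The inhibitors of 2i are CHIR99021, which inhibits GSK3, and PD0325901, which inhibits MEK. GFP-positive cells were taken on day 2. The study's methods give feeder-free culture in serum for R1 mESCs and do not say whether it held for the reporter line. The mesoderm progenitors came from another line, R1. They were grown as embryoid bodies in another medium, listed without serum in the study's methods, and were re-aggregated on day 2 with BMP4, Activin A and Wnt3a. The day 3 library preceded, and the day 4 library followed by 1 day, the addition of IWP-2, which blocks Wnt secretion. The other 5 libraries, all of unsorted R1 mESCs, came from 2iJ+B-A on days 2, 5 and 11 and from 2i and 2iJ (2i with the JAK inhibitor) on day 5. They entered the model and supply a range for comparison. The sorted cells are a single library of 1 reporter line.

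Cdx2 encodes a homeodomain transcription factor with separate roles at different stages of the mouse embryo. In the blastocyst it acts with Tfap2c, Gata3 and Tead4 in the trophectoderm, the outer polarised epithelium that will form the trophoblast of the placenta. After implantation it is expressed again in the primitive streak and posterior mesoderm, where cells under BMP, Wnt and Nodal signals express T (Brachyury) and Eomes, exchange E-cadherin for N-cadherin and leave the epithelium. Which trophectoderm, mesoderm and epithelial genes separate the sorted cells from the mesoderm progenitors was the question addressed.

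Values of single genes are given in CPM, counts scaled to the same total of gene counts in each library, in the order day 3, day 4 and sorted cells. Total gene counts were 31451806 and 30957386 in the mesoderm progenitors and 19810855 in the sorted cells, so that 3 counts, taken as the floor, correspond to at most 0.0969 CPM and to 0.151 CPM. The sorted library stood apart in its alignment, with 29.7% of read pairs unmapped against 2.17% to 3.85% in the other 7 libraries, and 867 of the tested genes had no count in it, against 649 and 759 in the mesoderm progenitors and 69 to 227 in the remaining libraries. Cell line, sorting, medium, day and alignment all differed between the groups and cannot be told apart. In bulk RNA, a smaller share of cells expressing a gene and less RNA per cell cannot be told apart either.

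Across 16961 tested genes, 2648 (15.6%) were higher and 2030 (12.0%) lower in the sorted cells at an adjusted p-value under 0.05 in the quasi-likelihood test of edgeR, a package that models counts with a negative binomial distribution. The median log2 fold change of all tested genes was -0.02. The sorted group had 1 library, so the spread came from the 2 mesoderm progenitor and 3 unsorted 2iJ+B-A libraries, and the p-values measure only the spread between those libraries, which also differ in day. The total of 4678 fell to 2763 without the unsorted day 5 library of 2iJ+B-A. With only the 3 libraries compared, 1 residual degree of freedom was left and 0 genes passed the threshold in edgeR, although 4157 had an unadjusted p-value under 0.05 and the lowest adjusted p-value was 0.0542. Of the 111 genes given below with values and called, 70 kept their call in each of the other 13 alternative fits that tested them, and the rest lost it in at least 1. Cdx2 is not among them. Calls lost or gained when a single library was left out are given beside the genes.

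The marker transcripts were examined first. Cdx2, at chr5:148112381-148118846 on the minus strand (NCBIM37), was at 40.2 CPM on day 3 (95% Wilson interval 38.0 to 42.4), 17.2 on day 4 (15.9 to 18.8) and 235 in the sorted cells (227.9 to 241). The mesoderm progenitors thus held Cdx2 at levels that overlapped those of unsorted cells in 2iJ+B-A (15.0 to 30.1), and the sorted library lay above all of them. As the cells had been sorted on a Cdx2 reporter, this difference is a description of the sort, and no test of it is reported. Tcfap2c, the name in this annotation of Tfap2c, an AP-2 factor of trophectoderm and germ cells at chr2:172375093-172384122, measured 14.6 CPM on day 3, 4.39 on day 4 and 147 in the sorted cells, a log2 fold change of 3.99 ± 0.80 (SE, edgeR adjusted p = 0.0154). Unsorted 2iJ+B-A cells held Tcfap2c at 38.6 to 117 CPM, and the 2i and 2iJ cells at 47.9 and 66.2. All of these lay above both mesoderm values, so the transcript was not particular to the sorted cells. T, the T-box factor of the primitive streak at chr17:8627288-8635361, measured 547 CPM on day 3, 6.3 on day 4 and 0.959 in the sorted cells. Its log2 fold change of -8.12 ± 2.84 did not pass the threshold (edgeR adjusted p = 0.0771), and the day 3 and day 4 libraries were themselves far apart. Set against day 3 alone, T had a log2 fold change of -9.14, and in DESeq2 with all libraries it passed (adjusted p = 0.00103). The day 3 fit holds a single library on each side, so its spread comes only from the unsorted 2iJ+B-A libraries. The same holds below for each fit against day 3 or day 4 alone, or without the day 3 or day 4 mesoderm library. Their p-values measure no spread among mesoderm progenitors or sorted cells. The label of the mesoderm progenitors therefore held for T on day 3, while on day 4 the T transcript was far lower. The day 4 library still held more T than the sorted cells, 195 counts against 19. Their 95% Wilson intervals did not overlap, but these cover counting error only and not the spread between cultures.

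**Figure D1:**
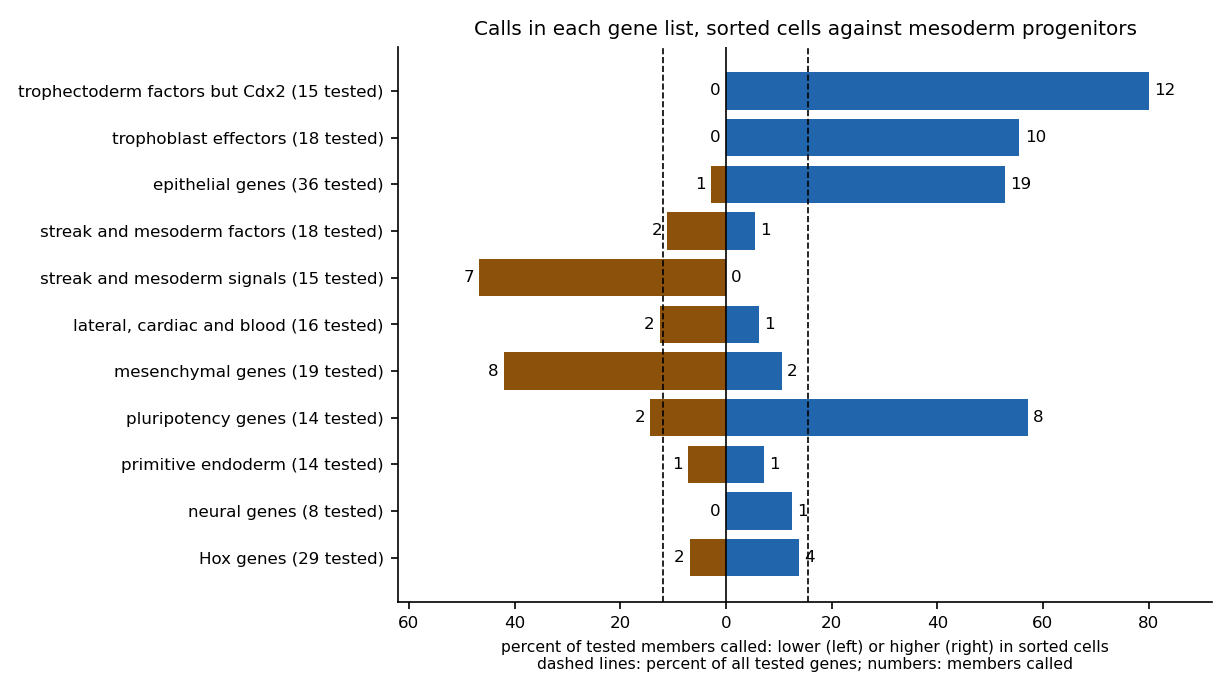
Percent of the tested members of 11 gene lists (Cdx2 left out) called higher (blue, to the right) or lower (brown, to the left) in the sorted cells than in the mesoderm progenitors at an edgeR adjusted p-value under 0.05, with the number of members called beside each bar. The dashed lines mark the share of all 16961 tested genes, 15.6% higher and 12.0% lower. The trophectoderm, trophoblast, epithelial and pluripotency lists reach furthest to the right, and the streak signals and mesenchymal genes furthest to the left.

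Promoters of genes that mark the contrast were read from RefSeq to show which binding words they hold, using the 250 bases before the annotated start (GRCm38.p6, 5′ to 3′ on the gene's strand). Capitals mark matches to the words searched on both strands, which were GCCNNNGGC for AP-2 factors, AGATAA for GATA factors, TTTATNG for CDX factors, TCACAC for T-box factors, GGAATG for TEAD factors and GGCGCC for SMAD1/5. Tcfap2c had no entry. The 4 shown are the sorted marker, 2 keratin genes of the trophectoderm and the streak marker:
Cdx2, chr5:147307250-147307499, minus strand: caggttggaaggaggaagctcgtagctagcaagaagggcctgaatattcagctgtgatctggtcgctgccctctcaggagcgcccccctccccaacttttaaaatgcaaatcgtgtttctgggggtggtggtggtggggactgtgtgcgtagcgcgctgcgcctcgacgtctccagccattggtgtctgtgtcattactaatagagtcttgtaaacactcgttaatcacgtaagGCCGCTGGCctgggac
Krt7, chr15:101412153-101412402, plus strand: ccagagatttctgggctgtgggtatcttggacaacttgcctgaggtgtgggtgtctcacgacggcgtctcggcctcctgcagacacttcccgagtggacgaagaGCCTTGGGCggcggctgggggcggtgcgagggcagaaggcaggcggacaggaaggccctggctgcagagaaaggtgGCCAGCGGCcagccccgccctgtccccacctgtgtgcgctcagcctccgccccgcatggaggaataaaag
Krt18, chr15:102027966-102028215, plus strand: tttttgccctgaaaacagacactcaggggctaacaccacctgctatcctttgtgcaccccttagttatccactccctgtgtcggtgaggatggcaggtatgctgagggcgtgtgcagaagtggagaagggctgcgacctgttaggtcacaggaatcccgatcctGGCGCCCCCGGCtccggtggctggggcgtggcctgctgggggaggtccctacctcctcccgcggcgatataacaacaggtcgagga
T, chr17:8434173-8434422, plus strand: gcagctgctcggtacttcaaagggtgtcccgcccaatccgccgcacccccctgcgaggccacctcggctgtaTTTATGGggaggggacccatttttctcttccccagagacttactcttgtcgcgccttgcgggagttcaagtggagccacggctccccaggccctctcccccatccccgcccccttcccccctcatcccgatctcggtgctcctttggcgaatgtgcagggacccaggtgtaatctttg

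The AP-2 word began 16 bases before the start of Cdx2, 146 and 70 bases before that of Krt7 and 83 bases before that of Krt18, where it overlaps the SMAD1/5 word. The promoter of T held the CDX word 178 bases before its start and no AP-2 word in this window. These matches are common. Of all 27025 promoters in the table, 13.56% held the AP-2 word, 10.16% the CDX word and 9.54% the SMAD1/5 word. Among tested genes, 12268 of 16961 had a promoter. The AP-2 word was in 18.53% of 1900 genes called higher (Wilson interval 16.84 to 20.34), 23.77% of 1468 called lower (21.67 to 26.02) and 20.22% of 8900 not called, so it was not more frequent among genes higher in the sorted cells. The GATA word was in 7.37% of genes called higher (6.28 to 8.63), 4.56% of those called lower (3.61 to 5.76) and 6.02% of those not called, and the CDX word in 7.74%, 4.29% and 6.45%. Both are AT-rich words, and the GC-rich AP-2 and SMAD1/5 words showed the opposite order. These shares are descriptions of letters in a window, and base composition was not matched between the groups.

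The TE-associated transcription factors differed in one direction. Leaving out Cdx2, 12 of 15 members were higher in the sorted cells and 0 were lower, a share of 80% beside 15.6% of all tested genes, and the median log2 fold change was 3.19. Gata2, a zinc-finger factor of trophoblast and blood at chr6:88143885-88157024, measured 8.01 CPM on day 3, 12.4 on day 4 and 459.7 in the sorted cells, a log2 fold change of 5.53 ± 0.40 (SE, edgeR adjusted p = 0.00131). Both mesoderm values lay more than an order of magnitude under the sorted value, and unsorted cells in 2iJ+B-A lay between, at 119.9 to 210.1 CPM. Gata3, a partner of Cdx2 in the trophectoderm, measured 11.1 CPM on day 3, 12.4 on day 4 and 105 in the sorted cells (log2 fold change 3.19 ± 0.52, adjusted p = 0.00884). Tead4, the DNA-binding partner of YAP in outer cells, measured 11.3 CPM on day 3, 27.1 on day 4 and 87.6 in the sorted cells (log2 fold change 2.22 ± 0.54, adjusted p = 0.028). Tcfap2a, the AP-2 paralogue of Tcfap2c, was at 14.8, 10.1 and 38.1 CPM (adjusted p = 0.0261), the smallest of the called differences in the list at 1.65 on the log2 scale.

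Several further factors of the list were low in the mesoderm progenitors. Esx1, a placental homeobox gene on chromosome X, measured 1.81 CPM on day 3, 0.452 on day 4 and 140.2 in the sorted cells (log2 fold change 6.99 ± 0.98). Ascl2, a basic helix-loop-helix factor of the spongiotrophoblast and ectoplacental cone, was at 0.413, 0.42 and 31.6 CPM. Sox15, an SRY-box gene of trophoblast giant cells, was at 0.254, 0.162 and 54.2 CPM, a log2 fold change of 8.03 ± 0.50. All 3 genes had edgeR adjusted p-values between 0.000883 and 0.00587, and in each the sorted library was also above every unsorted 2iJ+B-A library. Tcfeb (Tfeb), a factor required for placental vascularisation, was at 2.29, 1.45 and 99.9 CPM (adjusted p = 0.00102). Dlx3 (1.24, 0.743 and 7.82 CPM) and Grhl1 (1.62, 0.388 and 7.12 CPM) were called at lower levels. Elf5, which maintains trophoblast stem cells, was called higher (adjusted p = 0.03) on very few counts, 0 and 2 in the mesoderm progenitors and 18 in the sorted cells, or 0.909 CPM. The members not called were Klf5 (31.8, 3.59 and 154 CPM, adjusted p = 0.0557), Ets2 (36.3, 38.3 and 38.4 CPM) and Arid3a (90.2, 166 and 60.1 CPM), and only Arid3a lay under both mesoderm values. Klf5 passed against day 3 alone (adjusted p = 0.00768) and against day 4 alone (0.00147). Without the unsorted day 5 library, the adjusted p-values of Tead4, Tcfap2a, Elf5 and Grhl1 lay between 0.0608 and 0.0854, without the day 4 library those of Tcfap2a, Dlx3 and Grhl1 lay between 0.0561 and 0.0639, and without the day 3 library that of Elf5 was 0.0528. Grhl1 also lost its call without the unsorted day 2 (0.0729) or day 11 (0.0790) library.

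Among 18 tested genes of trophoblast function, 10 were higher (55.6%, beside 15.6% of all tested genes), 0 were lower and 8 did not pass, with a median log2 fold change of 3.84. Fabp3, a fatty acid carrier, measured 11.7 CPM on day 3, 5.36 on day 4 and 2174 in the sorted cells, a log2 fold change of 8.04 ± 0.45 (SE, edgeR adjusted p = 0.00074). Unsorted 2iJ+B-A cells held 393 to 406 CPM. Slc2a3, the glucose transporter GLUT3 of the trophectoderm, measured 253 CPM on day 3, 171 on day 4 and 3572 in the sorted cells (log2 fold change 4.12 ± 0.34, adjusted p = 0.0015), and both mesoderm libraries lay far under the unsorted range of 1059 to 1588 CPM. The 2i and 2iJ cells held 1519 and 1377 CPM of Slc2a3, within that range. Lgals3 (4.2, 0.614 and 172 CPM, encoding galectin-3), Wnt7b (2.19, 0.194 and 65.4, a Wnt ligand used in chorion attachment) and Dab2 (12.1, 20.3 and 212, an endocytic adaptor) were called higher. So were Cdcp1 (4.99, 0.775 and 42.6), a surface protein gene, and Plet1, annotated as 1600029D21Rik (1.46, 1.55 and 69.5). For these 5 genes the adjusted p-values ran from 0.00179 to 0.0342, and Cdcp1 lost its call without the unsorted day 2 (0.0661) or day 5 (0.0671) library. The paralogues Rhox6 (0.604, 0.485 and 38.4 CPM) and Rhox9 (0.35, 0.614 and 24.4 CPM) were called higher than in the mesoderm progenitors but were under the unsorted range in the sorted cells, and their counts hold only pairs that align to 1 place.

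Some genes of the trophoblast list did not separate the states. Fgfr2, the receptor for the FGF4 that sustains trophoblast stem cells, measured 9.6 CPM on day 3, 34.6 on day 4 and 61.4 in the sorted cells (edgeR adjusted p = 0.148), although it passed against day 3 alone (log2 fold change 2.69, adjusted p = 0.0119). Plac1, which is enriched in placenta, was at 0.445, 24.8 and 6.87 CPM and Cd40 at 5.66, 12.1 and 1.51 CPM, neither called, but Plac1 was higher in the sorted cells against day 3 alone (log2 fold change 3.94, adjusted p = 0.0248). Cd40 was lower in the sorted cells against day 4 alone (log2 fold change -3.02, adjusted p = 0.029), in DESeq2 (0.0156) and with 2i and 2iJ joined into 1 group (0.0323). Transcripts of mature placental lineages were not detected in the sorted cells. Tpbpa of the spongiotrophoblast had 0 counts there and 10 counts on day 3, or 0.318 CPM, which is above the floor. The placental lactogen gene Prl3d1 and the proliferin gene Prl2c2 had 0 counts in all 3 libraries. A count of 0 allows up to 0.151 CPM in the sorted cells. These 3 genes were under the count filter and were not tested.

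**Figure D2:**
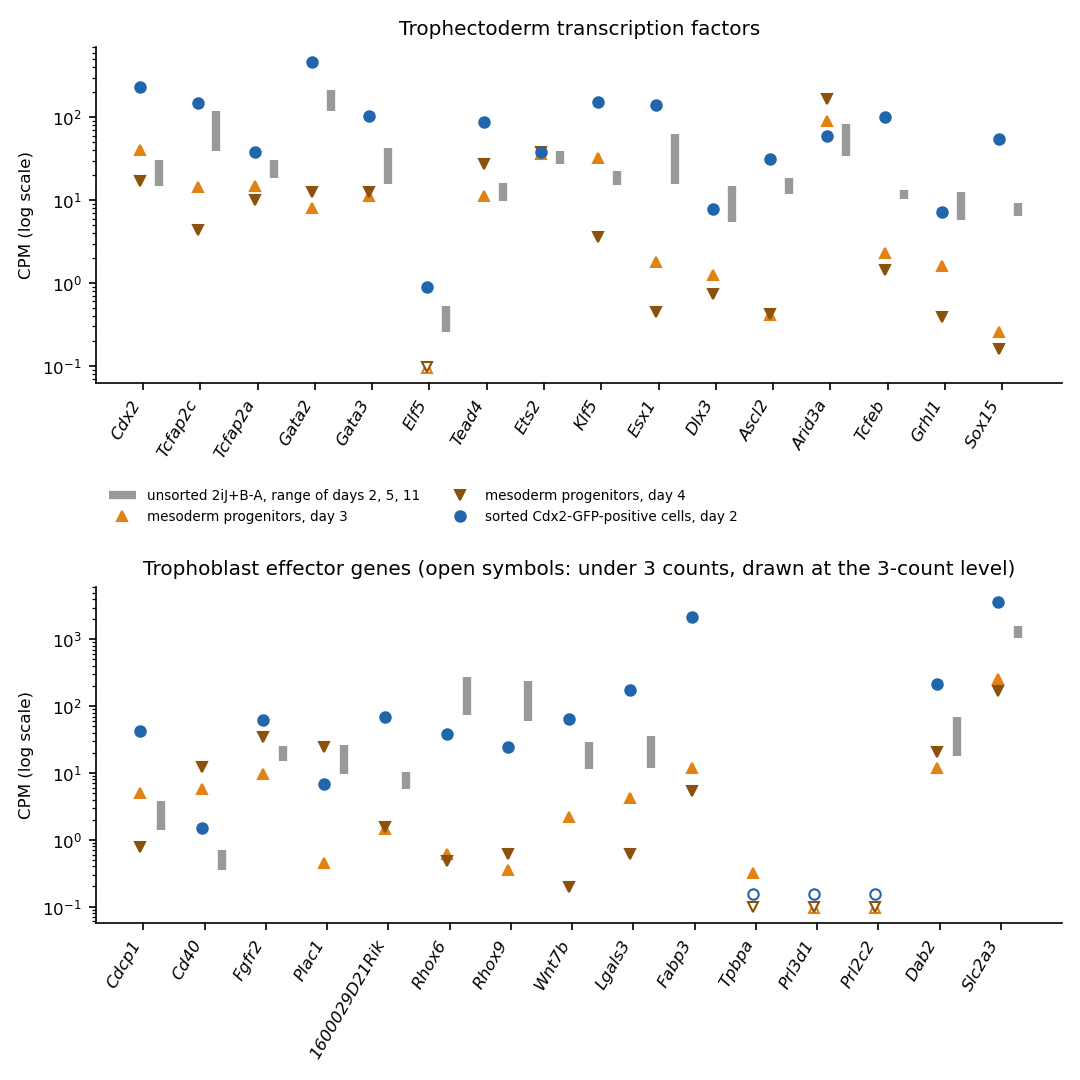
CPM (log axis) of 16 trophectoderm transcription factors and the 15 trophoblast genes named in the text in the day 3 (orange triangles) and day 4 (brown triangles) mesoderm progenitors and in the sorted cells (blue circles), with the range of the 3 unsorted 2iJ+B-A libraries as grey bars, drawn where it exceeds the 3-count level. Open symbols had under 3 counts and are drawn at that level. The sorted cells are at the top for most factors, with Fabp3 at 2174 and Slc2a3 at 3572 CPM, and Tpbpa, Prl3d1 and Prl2c2 lie at the bottom of the axis.

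The epithelial genes were higher as a group. Of 36 tested members, 19 were higher (52.8%, beside 15.6% of all tested genes), 1 was lower and 16 did not pass, and the median log2 fold change was 2.57. The sorted library was above both mesoderm libraries for 32 members, under both for 1 and between them for 3. Of all 16961 tested genes, 14277 had a sorted value outside both mesoderm values, above or under, so lying outside them was common. The sorted library was above all 3 unsorted 2iJ+B-A libraries for 35 members, against 33.5% of all tested genes. Day 3 was above day 4 in 31 of the 36. The number of members called higher was 29 without the day 3 library and 12 without the unsorted 2iJ+B-A library of day 5.

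Krt8 and Krt18 had the highest CPM of the named epithelial genes in the sorted cells. Krt8 and Krt18, which pair into the intermediate filaments of the trophectoderm, are neighbours at chr15:101827142-101834773 and chr15:101858647-101862457. Krt8 measured 376 CPM on day 3, 213 on day 4 and 1731 in the sorted cells (log2 fold change 2.60 ± 0.60, edgeR adjusted p = 0.0238) and Krt18 measured 145 CPM on day 3, 71.7 on day 4 and 1595 in the sorted cells (log2 fold change 3.92 ± 0.62, adjusted p = 0.0083). Krt7, another trophoblast keratin, measured 2.29 CPM on day 3, 0.388 on day 4 and 109 in the sorted cells (log2 fold change 6.39 ± 1.24, adjusted p = 0.0142). The 3 keratins were therefore not equal in the mesoderm progenitors, where Krt8 and Krt18 were well detected and Krt7 was low. Krt19 was at 102, 24.6 and 25.6 CPM, with the sorted value between the mesoderm values (adjusted p = 0.394). Without the day 4 library the adjusted p-value of Krt8 was 0.0603.

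Tight-junction genes made up the largest block of called members. Cldn4 measured 29.2 CPM on day 3, 3.52 on day 4 and 815 in the sorted cells (log2 fold change 5.69 ± 1.04, edgeR adjusted p = 0.0121) and Cldn3 was at 2.29, 0.678 and 41.3 CPM. Both encode claudins that seal the paracellular space. Ocln (6.36, 0.743 and 42.9 CPM, occludin), Cgn (42.5, 13.1 and 200.0, cingulin) and Tjp3 (3.21, 1.07 and 75.4, ZO-3) were called as well, with log2 fold changes from 2.89 for Cgn to 5.18 for Tjp3. Cldn6 (54.7, 5.49 and 104 CPM) and Cldn7 (38.0, 2.65 and 167 CPM) were above both mesoderm values in the sorted cells but did not pass (adjusted p = 0.211 and 0.101), and in each the day 3 value was closer to the sorted cells than the day 4 value was. Both passed against each day alone, Cldn6 with adjusted p-values of 0.0453 for day 3 and 0.00154 for day 4, and Cldn7 with 0.0396 and 0.00379. Ocln was not called without any 1 of the unsorted 2iJ+B-A libraries (adjusted p = 0.0631 to 0.0831).

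Adhesion genes divided. Epcam, an adhesion molecule of epithelia and mESCs, measured 84.1 CPM on day 3, 15.2 on day 4 and 409 in the sorted cells (log2 fold change 3.09 ± 0.79, edgeR adjusted p = 0.032). Dsg2, a desmosomal cadherin, was at 44.7, 50.9 and 169 CPM (adjusted p = 0.0029). Dsp, the plaque protein of the same junction, went the other way at 346 CPM on day 3, 212 on day 4 and 71.0 in the sorted cells, a log2 fold change of -1.93 ± 0.53 (adjusted p = 0.0401), while the sorted value was above the unsorted range of 17.0 to 36.2 CPM. Jup (50.6, 73.9 and 152 CPM) and Pkp2 (27.0, 55.4 and 63.2 CPM), further plaque proteins, did not pass. Without the unsorted day 2 library Jup was called higher (log2 fold change 1.32, edgeR adjusted p = 0.0326). Cdh1, encoding E-cadherin, measured 503 CPM on day 3, 28.3 on day 4 and 963 in the sorted cells and did not pass (log2 fold change 1.91 ± 1.21, adjusted p = 0.274), although it did against day 3 alone (log2 fold change 0.95, adjusted p = 0.0454) and against day 4 alone (5.07, adjusted p = 0.00147). The day 3 progenitors still held Cdh1 at about the level of unsorted mESCs in 2i, 525 CPM, whereas the day 4 value was far lower. Epcam lost its call without any 1 of the unsorted 2iJ+B-A libraries (adjusted p = 0.0524 to 0.0652), and Dsp without the day 3 library (0.0636) or the unsorted day 2 (0.0674) or day 5 (0.0636) library.

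The remaining epithelial members were divided as well, and 9 that are not named here did not pass. Grhl2, a grainyhead factor that activates Cdh1 and claudin genes, was at 19.2, 3.68 and 102 CPM (edgeR adjusted p = 0.0373). Esrp2, an epithelial splicing regulator, was at 3.69, 0.808 and 94.1 CPM (adjusted p = 0.00763), whereas its paralogue Esrp1 was at 63.2, 3.91 and 55.2 CPM and was not called, except against day 4 alone (log2 fold change 3.80, adjusted p = 0.00714). The transcription factor Ovol1 was at 0.413, 0.097 and 3.84 CPM (adjusted p = 0.0208). Aqp3, a water and glycerol channel of the trophectoderm, had the largest log2 fold change of the list at 9.47 ± 0.70 (adjusted p = 0.00132), from 0.254 and 0.743 CPM in the mesoderm progenitors to 348 in the sorted cells. Atp1b1, the sodium pump subunit that drives blastocoel fluid, was at 28.1, 10.2 and 188 CPM (adjusted p = 0.00955). The 2i and 2iJ cells held Atp1b1 at 189.6 and 126.9 CPM and Aqp3 at 61.1 and 59.1, so neither transcript was particular to the sorted cells. The membrane protease Prss8 and the protease inhibitors Spint1 and Spint2 were called higher too, with sorted values of 50.5, 137 and 249 CPM. Without the unsorted day 5 library, Grhl2, Ovol1, Spint1 and Spint2 were not called (adjusted p = 0.0526 to 0.0721). The same held for Grhl2, Spint1 and Prss8 without that of day 2 (0.0507 to 0.0796), for Spint1 without that of day 11 (0.0584) and for Prss8 without the mesoderm library of day 4 (0.0657).

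Mesenchymal genes went mainly the other way. Of 19 tested members, 8 were lower (42.1%, beside 12.0% of all tested genes), 2 were higher and 9 did not pass, with a median log2 fold change of -2.27. The number called lower was 3 without the unsorted day 5 library of 2iJ+B-A. Cdh2, encoding N-cadherin, measured 175 CPM on day 3, 127 on day 4 and 1.72 in the sorted cells (log2 fold change -6.42 ± 0.73, edgeR adjusted p = 0.00336). Cdh11, a mesenchymal cadherin, was at 153, 107 and 5.75 CPM (adjusted p = 0.0129), Vim at 253, 606 and 54.9 CPM and Fn1, encoding fibronectin, at 2052, 985 and 448 CPM. The repressors of E-cadherin Twist1 (23.8, 19.6 and 3.58 CPM) and Zeb2 (32.7, 65.1 and 3.18 CPM) and the matrix proteases Mmp2 (47.6, 138 and 7.77) and Mmp14 (60.0, 69.9 and 8.93) were lower, whereas Snai2 (0.795, 31.6 and 3.28 CPM) was not called and Snai1 (105, 21.2 and 9.04 CPM, adjusted p = 0.103) was not called either. Zeb1 was listed at 0 in all 8 libraries. Without the unsorted day 5 library, Vim, Fn1, Twist1, Zeb2 and Mmp2 lost their calls (adjusted p = 0.0508 to 0.0814), as did Fn1 and Twist1 without the day 3 library (0.0568 and 0.0585) or the unsorted day 11 library (0.0639 and 0.0622), Fn1 without that of day 2 (0.0561) and Zeb2 without the day 4 library (0.0548). Snai2 was lower against day 4 alone (log2 fold change -3.28, adjusted p = 0.0114) and Snai1 against day 3 alone (-3.54, adjusted p = 0.0183).

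Of the 4 collagen genes in the mesenchymal list, 2 were called higher. Col1a1 measured 1.75 CPM on day 3, 5.17 on day 4 and 42.1 in the sorted cells (log2 fold change 3.64 ± 0.96, edgeR adjusted p = 0.0351) and Col3a1 measured 0.541 CPM on day 3, 0.581 on day 4 and 12.7 in the sorted cells (adjusted p = 0.00845), both higher in the sorted cells and above their unsorted ranges of 0.618 to 3.15 and 0.611 to 1.78 CPM. Col1a2 was at 9.95, 1.45 and 24.8 CPM and Prrx1, a factor of limb and stromal mesenchyme, at 0.604, 6.59 and 9.84 CPM, neither called, although Col1a2 was higher against day 4 alone (log2 fold change 4.07, adjusted p = 0.0186). The fourth collagen gene lay under both mesoderm values in the sorted cells and did not pass. The call of Col1a1 was lost without the day 3 library (0.0687) or the unsorted day 2 (0.0680) or day 5 (0.0567) library. Whether another cell type contributed these transcripts was not tested.

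**Figure D3:**
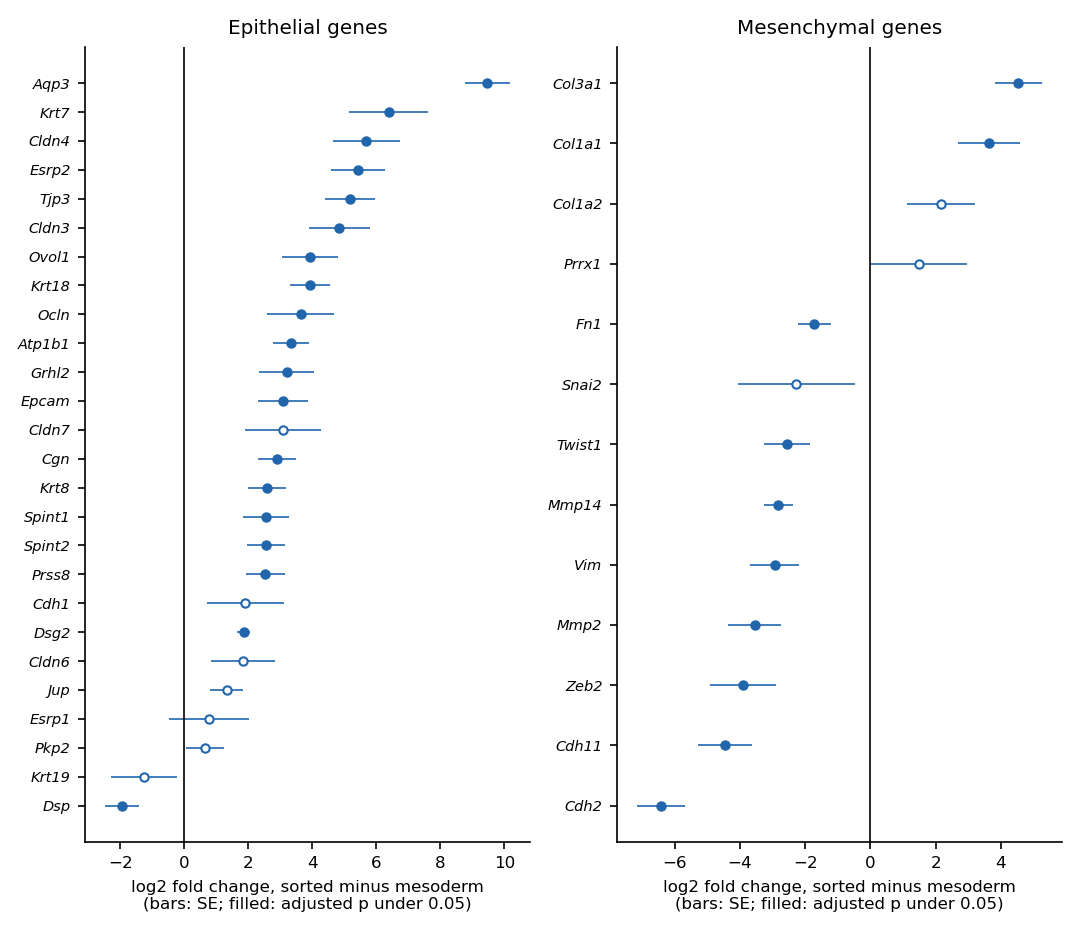
Log2 fold changes (sorted minus mesoderm progenitors) of the 26 epithelial and 13 tested mesenchymal genes named in the text, with SE as bars and filled circles for an edgeR adjusted p-value under 0.05. The epithelial panel lies mostly to the right of 0, from -1.93 for Dsp to 9.47 for Aqp3, and the mesenchymal panel mostly to the left, from -6.42 for Cdh2 to 4.53 for Col3a1.

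The streak and mesoderm transcription factors were dominated by the step from day 3 to day 4. Their summed level was 1704 CPM on day 3, 111 on day 4 and 47.6 in the sorted cells, beside 17.4 to 37.8 in unsorted 2iJ+B-A cells. Of 18 tested members, 2 were lower (11.1%, beside 12.0% of all tested genes), 1 was higher and 15 did not pass, so the share called was near that of all genes. The median log2 fold change was -2.69, and day 3 was above day 4 in 15 of the 18. Mesp1, which marks early cardiac and cranial mesoderm, was at 181 and 6.36 CPM in the mesoderm progenitors and had 1 count in the sorted cells. The pooled mesoderm level was 1870 times that of the sorted cells by counts, with an exact 95% interval of 336 to 74000 that covers counting error only (edgeR adjusted p = 0.0474). Lhx1, a LIM-homeodomain factor of the anterior streak, was at 181, 17.4 and 0.202 CPM (adjusted p = 0.0218). The call of Mesp1 was lost without any 1 of the unsorted 2iJ+B-A libraries (adjusted p = 0.0556 to 0.0890). Without the day 4 library, 9 members were called lower, and without any 1 of the unsorted libraries 1 was.

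Of the 15 members that did not pass, 10 were highest on day 3, 3 on day 4 and 2, Cdx1 and Cdx4, in the sorted cells. Mixl1 was at 205, 2.1 and 0.05 CPM, Evx1 at 193, 6.91 and 1.26, Sp5 at 162, 1.2 and 3.38 and Tbx6 at 32.7, 1.26 and 1.92, with edgeR adjusted p-values of 0.0672 to 0.22. For Sp5 and Tbx6 the day 4 library was under the sorted library, so the groups overlapped. Against day 3 alone these 4 genes were lower in the sorted cells (adjusted p = 0.00198 to 0.0285), and against day 4 alone Mixl1 was (0.0258). Msgn1, a factor of presomitic mesoderm, was at 13.5 CPM on day 3, had 1 count on day 4 and none in the sorted cells, and was under the count filter. Tcf15, which is expressed in paraxial mesoderm and also in mESCs leaving naive pluripotency, was the member called higher, at 1.46, 0.678 and 8.43 CPM (adjusted p = 0.0189), a call that was lost without the unsorted day 5 library (0.0504). The endoderm and node factors Gsc (9.95, 0.194 and 1.72 CPM) and Foxa2 (1.75, 0.065 and 0.151 CPM) were low throughout. Gsc was lower in the sorted cells against day 3 alone (adjusted p = 0.0348) and higher against day 4 alone (0.0317).

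Ligands and receptors of the streak were lower or did not pass. Of 15 tested, 7 were lower (46.7%, beside 12.0% of all tested genes) and 0 were higher, with a median log2 fold change of -5.65. Day 3 was above day 4 in 12 of the 15, among them all 8 that did not pass. Wnt5a, a ligand of non-canonical Wnt signalling, measured 87.3 CPM on day 3, 95.2 on day 4 and 1.92 in the sorted cells (log2 fold change -5.53 ± 0.66, edgeR adjusted p = 0.00375), and Wnt3, which starts streak formation, was at 107, 25.0 and 0.959 CPM. Fgf8, which is needed for migration out of the streak, was at 54.3, 7.17 and 0.252 CPM. The receptors of migrating mesoderm were high on both days: Pdgfra at 145, 239.6 and 4.44 CPM, Kdr (the VEGF receptor FLK1) at 67.8, 305 and 1.36 and Aplnr (the apelin receptor) at 189, 103 and 0.202. Rspo3, an agonist of Wnt signalling, was at 59.8, 29.0 and 0.151 CPM, a log2 fold change of -8.11 ± 0.99 (adjusted p = 0.00403). Nodal was at 44.0, 1.65 and 20.8 CPM, with the sorted value between the days, and was not called, but it was higher in the sorted cells against day 4 alone (log2 fold change 3.63, adjusted p = 0.016). Fst, encoding the Activin antagonist follistatin, was highest on day 3 (379, 5.39 and 3.69 CPM, adjusted p = 0.215). The calls of Fgf8, without the unsorted day 2 library (0.0585), and Pdgfra, without that of day 5 (0.0585), were lost.

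Lateral plate, cardiac and blood genes were detected mainly on day 4, which was above day 3 in 15 of 16 members. Of the 16, 2 were lower in the sorted cells (12.5%, beside 12.0%), 1 was higher and 13 did not pass. The median log2 fold change was -4.83, or -4.17 with genes at 0 set to their bounds. Gata4, a factor of heart and extra-embryonic endoderm, measured 96.6 CPM on day 3, 226 on day 4 and 0.757 in the sorted cells (log2 fold change -7.69 ± 2.12, edgeR adjusted p = 0.0402), and Isl1, of the second heart field, was at 9.82, 61.6 and 0.303 CPM (adjusted p = 0.02). Hand2 was at 2.54, 406 and 0.05 CPM, Mef2c at 8.17, 252 and 0.353 and Tbx20 at 4.45, 147 and 20.5, none called. Tbx5, Nkx2-5, Tal1 and Myocd had 0 counts in the sorted cells. Against a floor of 3 counts there, their mean in the mesoderm progenitors was at least 61.5-fold, 45.4-fold, 142-fold and 102-fold higher, carried by day 4, and their adjusted p-values of 0.0665 to 0.11 did not pass. Against day 4 alone these 4 genes and Hand2, Mef2c and Tbx20 were lower in the sorted cells (adjusted p = 0.00359 to 0.0283). Runx1, a blood factor, was higher in the sorted cells at 2.77, 1.91 and 32.2 CPM (adjusted p = 0.0263), and the endothelial genes Cdh5 (1.59, 8.17 and 1.31 CPM) and Tek (1.02, 6.07 and 0.909 CPM) were low in all 3 libraries. Gata4 and Runx1 were not called without the day 4 library (adjusted p = 0.0548 and 0.0665) or without the unsorted day 5 library (0.0619 and 0.0585).

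**Figure D4:**
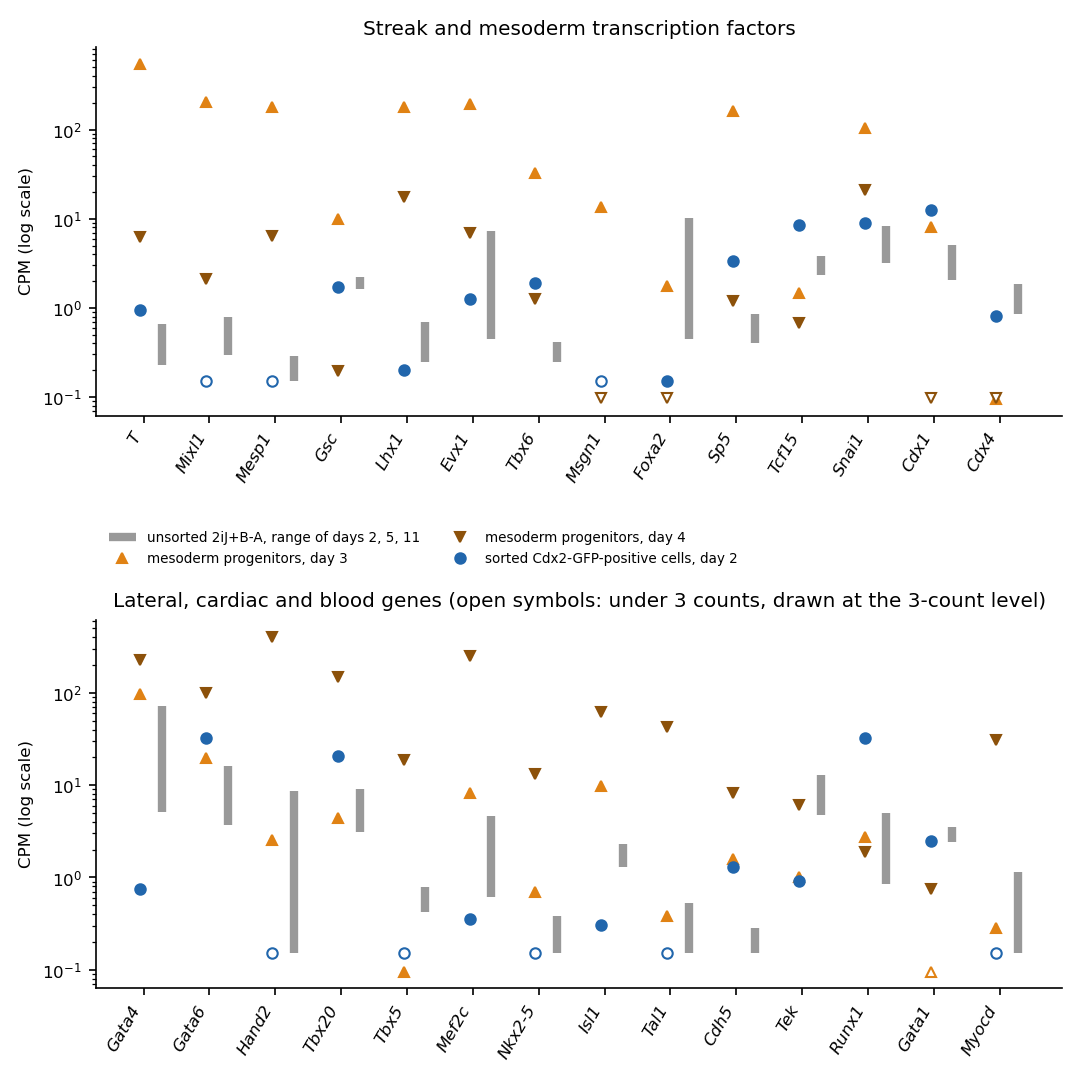
CPM (log axis) of the 14 streak and mesoderm transcription factors and 14 lateral, cardiac and blood genes named in the text, with symbols and grey bars as for the trophoblast genes. Most streak factors run from high on day 3 through lower on day 4 to low in the sorted cells, with T at 547, 6.3 and 0.959 CPM, and the cardiac genes peak on day 4, with Hand2 at 406 CPM.

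Genes that serve both trophoblast and mesoderm showed no common direction. Of 6, 1 was higher and 1 lower (16.7% each, beside 15.6% and 12.0% of all tested genes). Eomes, which is used in trophoblast stem cells and again in the streak, was lower in the sorted cells, at 393 CPM on day 3, 22.2 on day 4 and 2.67 in the sorted cells (log2 fold change -6.22 ± 1.84, edgeR adjusted p = 0.049), and the sorted value lay within the unsorted range of 2.57 to 4.16 CPM. Its call was lost without any 1 of the unsorted 2iJ+B-A libraries (adjusted p = 0.0682 to 0.0904). Hand1, of trophoblast giant cells and heart, was at 42.1, 540.0 and 36.6 CPM and did not pass, with the sorted value under both days. Bmp4 was at 7.03, 161 and 9.59 CPM and Id2 at 29.2, 118 and 207 CPM, neither called, although Bmp4 was lower against day 4 alone (adjusted p = 0.00923) and Id2 higher against day 3 alone (0.00962). Tbx3 was higher at 77.9, 106 and 337 CPM (adjusted p = 0.0103).

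Gene families were compared per kilobase of exon, which allows levels of different genes to be set side by side. Among GATA factors in the sorted cells, Gata2 stood at 137 CPM per kb, Gata3 at 26.3, Gata6 at 10.3, Gata1 at 1.01 and Gata4 at 0.194, and Gata5 had 0 counts. On day 4 the order was different, with Gata4 at 57.7, Gata6 at 30.9, Gata5 at 14.4, Gata2 at 3.71 and Gata3 at 3.12 CPM per kb, the last 2 being close to each other. Gata6 was not called between the groups, at 19.9, 98.7 and 32.8 CPM (edgeR adjusted p = 0.6). Among AP-2 factors the levels were 3.97, 1.19 and 39.9 CPM per kb for Tcfap2c and 4.56, 3.12 and 11.8 for Tcfap2a on day 3, day 4 and in the sorted cells, so Tcfap2a was the higher of the pair on both days of the mesoderm progenitors and Tcfap2c in the sorted cells. Tcfap2b and Tcfap2d were under the filter, and Tcfap2e was at 0.707 CPM in the sorted cells.

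Cadherins per kilobase showed Cdh1 at 109.9, 6.18 and 211 CPM per kb and Cdh2 at 21.7, 15.8 and 0.213. The day 3 progenitors thus held more Cdh1 than Cdh2 transcript, the day 4 progenitors more Cdh2 than Cdh1, and the sorted cells mainly Cdh1, with 34 counts of Cdh2. Cdh3, encoding P-cadherin, was at 6.55, 31.1 and 10.8 CPM and was not called, except as lower against day 4 alone (adjusted p = 0.025). Of the other Cdx genes, Cdx1 was at 8.14, 0.032 and 12.4 CPM and Cdx4 at 0.095, 0 and 0.808 CPM, neither called except as higher against day 4 alone (adjusted p = 0.00547 and 0.0274). Per kilobase Cdx2 stood at 17.8, 7.63 and 104 and Cdx1 at 4.65, 0.018 and 7.10 CPM per kb.

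**Figure D5:**
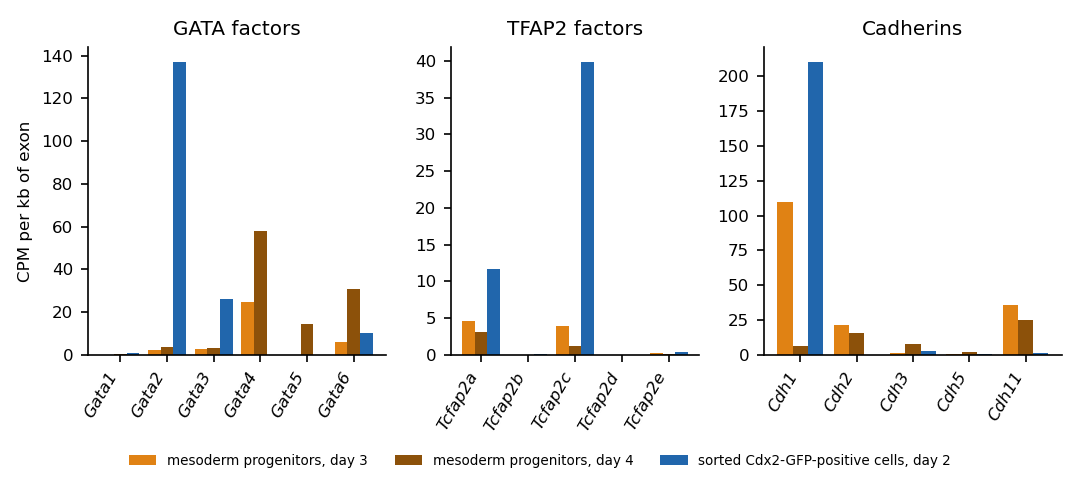
Levels in CPM per kb of annotated exon of 6 GATA factors, 5 AP-2 (Tcfap2) factors and 5 cadherins in the day 3 (orange) and day 4 (brown) mesoderm progenitors and the sorted cells (blue), each a single library. Gata2 at 137, Tcfap2c at 39.9 and Cdh1 at 211 stand out in the sorted cells, and Gata4 at 57.7 on day 4.

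The pluripotency genes named by the study were mostly higher in the sorted cells, with 8 of 14 higher (57.1%, beside 15.6%) and 2 lower (14.3%, beside 12.0%). The list is the set the study selected for its model of pluripotency. Klf2 measured 4.04 CPM on day 3, 4.17 on day 4 and 157 in the sorted cells (log2 fold change 5.29 ± 0.26, edgeR adjusted p = 0.000672), Klf4 was at 7.85, 14.2 and 209 CPM, Nr5a2 (Lrh1) at 1.43, 1.29 and 132, Zfp42 (Rex1) at 10.6, 6.69 and 231 and Esrrb at 6.2, 3.91 and 101. Compared with unsorted 2iJ+B-A cells, the sorted value of Sox2, 110.4 CPM, was under the range of 514 to 597, as was that of Zfp42 (468 to 765) and of Esrrb (239.6 to 296). Pou5f1 (Oct4) was at 701, 35.4 and 957 CPM and Nanog at 153, 9.72 and 401, neither called (adjusted p = 0.423 and 0.172), with the day 3 values far above day 4. Both were higher against day 4 alone (adjusted p = 0.00147 for each) and Nanog also against day 3 alone (0.0127). Myc (36.7, 42.4 and 11.4 CPM) and Mycn (86.6, 74.7 and 44.4 CPM) were lower in the sorted cells, and the call of Mycn was lost without any 1 of the mesoderm or unsorted 2iJ+B-A libraries (adjusted p = 0.0504 to 0.0852).

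Markers of other lineages that the cultures could hold were counted in the same way. Of 14 tested primitive endoderm genes, 1 was higher (Dab2) and 1 lower (Gata4), 7.14% each beside 15.6% and 12.0% of all tested genes. Their summed level was 442 CPM in the sorted cells, 716 and 841 in the mesoderm progenitors and 345 to 3230 in unsorted 2iJ+B-A cells. Sox17 was at 2.07, 2.1 and 1.16 CPM and Afp had 0 counts in the sorted cells. Of 8 tested neural genes, 1 was higher (12.5%, beside 15.6%) and 0 were lower. The summed neural level of 34.9 CPM in the sorted cells lay near the day 4 value of 28.7 and under the day 3 value of 206, of which Nes made up 200.5 and was lower in the sorted cells against day 3 alone (adjusted p = 0.00646). Sox1 had no entry in the annotation, and Hes5, Neurog2 and Six3 were under the filter. Of 10 tested genes of the formative and primed epiblast, 4 were lower (40%, beside 12.0%), including Dnmt3a (136, 186 and 64.6 CPM) and Sall2 (36.9, 56.7 and 1.97 CPM), and Foxd3 was higher (0.159, 0.355 and 16.2 CPM). Sox3, also lower, had 0 counts in the sorted cells and was at least 16.4-fold higher in the mesoderm progenitors against the 3-count floor (adjusted p = 0.0167), and Fgf5 was at 38.8, 0.937 and 0.05 CPM and was not called, except against day 3 alone (0.012).

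Target and feedback genes of the signals in the media were counted next. Of 12 BMP targets, 3 were lower in the sorted cells and 0 higher (25.0%, beside 12.0%): Id1 at 123, 183 and 52.3 CPM, the homeobox gene Msx1 at 40.3, 76.9 and 2.62 and the BMP-binding protein gene Bmper at 32.4, 129.8 and 1.51, with edgeR adjusted p-values of 0.0194 to 0.0312. Id3 (81.6, 234 and 49.5 CPM), Smad6 (16.6, 120.3 and 4.64) and Smad7 (25.9, 95.6 and 52.5) did not pass, although Id3 and Smad6 were lower against day 4 alone (adjusted p = 0.00311 and 0.00545), and day 4 was above day 3 in all 12. Of 15 Wnt targets, 6 were lower (beside 12.0% of all tested genes), among them Lef1 at 191, 52.0 and 9.74 CPM, Tcf7 at 139, 62.5 and 24.0 and Nkd1 at 61.2, 30.5 and 4.79, and Rnf43 was higher at 2.32, 0.969 and 8.63 CPM. Axin2, the general feedback target, was at 119, 30.9 and 71.3 CPM, with the sorted cells, whose medium held a GSK3 inhibitor, between the days, and was not called except as higher against day 4 alone (log2 fold change 1.19, adjusted p = 0.0398). Lgr5 was among the 6 on few counts, 24 and 15 in the mesoderm progenitors and 0 in the sorted cells. Without the unsorted day 5 library, Msx1, Lef1, Tcf7 and Rnf43 were not called (adjusted p = 0.0583 to 0.105), nor were Lef1, Tcf7 and Rnf43 without that of day 2 (0.0543 to 0.0594). Rnf43 was also not called without the unsorted day 11 library (0.0697) or the mesoderm library of day 4 (0.0959).

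The 9 tested genes listed for Nodal hold components of the pathway, such as Foxh1, as well as targets. Of them, Foxh1 (144, 245 and 14.9 CPM) and Skil (112, 90.5 and 35.8 CPM) were lower and Gdf3 (2.1, 0.808 and 36.7 CPM) was higher. Their edgeR adjusted p-values ran from 0.00271, for Gdf3, to 0.0245, for Skil. These are 22.2% lower and 11.1% higher, beside 12.0% and 15.6% of all tested genes. Lefty2 was at 50.5, 2.49 and 0.151 CPM and was not called. Of 15 ERK feedback genes, Spred1 was lower at 160.3, 119 and 10.3 CPM (log2 fold change -3.72 ± 0.36, adjusted p = 0.00207), as was Dusp6 at 159, 30.2 and 6.06 CPM (adjusted p = 0.0424). Fos was higher at 5.5, 6.4 and 22.6 CPM. The 2 lower genes are 13.3% of the list and the 1 higher gene 6.67%, beside 12.0% and 15.6% of all tested genes. Dusp4 at 176, 151 and 52.1 CPM and Spry2 at 136, 102 and 42.7 CPM did not pass, and both were above their unsorted ranges of 3.06 to 7.88 and 9.09 to 20.5 CPM in the sorted cells. Without the unsorted day 2 library both were called lower (edgeR adjusted p = 0.0151 and 0.0268). Both were also lower in DESeq2 (adjusted p = 0.0122 and 0.0214), and Dusp4 without a filter on low counts (edgeR adjusted p = 0.0419). Dusp6 lost its call without any 1 of the unsorted 2iJ+B-A libraries (0.0576 to 0.0768), and Fos without the day 3 (0.100), day 4 (0.0788), unsorted day 2 (0.0796) or unsorted day 5 (0.0758) library.

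Hox genes, whose clustered order follows position along the body axis, differed by gene. Of 29 tested, 4 were higher (13.8%, beside 15.6%) and 2 lower (6.90%, beside 12.0%). Hoxb1, of the early streak, was lower at 21.2, 44.9 and 0.202 CPM (edgeR adjusted p = 0.0299), and Hoxb2 had 0 counts in the sorted cells against 3.85 and 55.1 CPM, at least 195-fold higher in the mesoderm progenitors (adjusted p = 0.0449). Hoxb9, of the same cluster, was higher at 0.35, 0.194 and 15.7 CPM (log2 fold change 5.87 ± 0.62, adjusted p = 0.0029), with unsorted 2iJ+B-A cells at 8.11 to 15.3 CPM. Hoxc13 (0.382, 0 and 7.32 CPM), Hoxc4 (0.159, 0.162 and 1.77 CPM) and Hoxb13 (0, 0 and 0.757 CPM) were called higher at low levels. The remaining 23 tested Hox genes were not called, and 10 were under the filter. Without any 1 of the unsorted 2iJ+B-A libraries, Hoxb2 (0.0511 to 0.0744) and Hoxc13 (0.0550 to 0.0773) were not called, and Hoxb13 was not called without that of day 5 (0.0523).

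The largest differences among 2917 protein-coding genes that met the rule for size were mostly switches between detection and no detection. Of the 10 largest rises, 8 had 0 counts in both mesoderm libraries. Dppa1, a gene of pluripotent cells, was at 174 CPM in the sorted cells, at least 1800-fold higher against the 3-count floor (edgeR adjusted p = 0.00149), and was at 0.35 to 0.978 CPM in unsorted 2iJ+B-A cells. Trim43a was at 129 CPM (at least 1330-fold), with unsorted 2iJ+B-A cells at 53.6 to 74.5 CPM. Alppl2, an alkaline phosphatase gene of the early embryo, was at 18.9 CPM (at least 195-fold), with unsorted cells at 0.391 to 3.95. The interferon-related gene Oas1f (25.7 CPM), Pramel5 (19.0), Sept12 (17.1), the acute-phase gene Saa3 (16.5) and BC053393 (14.4) completed the 8. In unsorted 2iJ+B-A cells Saa3 was at 6.575 to 11.5 CPM, and Oas1f, Pramel5, Sept12 and BC053393 lay between 0.127 and 2.69. Crxos1, a homeobox gene of mESCs, was at 0.064, 0.065 and 214 CPM. Unsorted 2iJ+B-A cells held Crxos1 at 65.9 to 79.4 CPM and the 2i and 2iJ cells at 69.8 and 61.0. Neither Crxos1 nor Trim43a was therefore particular to the sorted cells. Adh1, an alcohol dehydrogenase, had 0 counts and 1 count in the mesoderm progenitors and stood at 389 CPM in the sorted cells, against 1.63 to 3.22 in unsorted cells (adjusted p = 0.000672). Trim43a, Oas1f and Pramel5 have close paralogues, and their counts hold only pairs that align to 1 place.

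All of the 10 largest falls had 0 counts in the sorted cells. Has2, the hyaluronan synthase of migrating mesoderm and heart cushions, was at 38.6 and 342 CPM, at least 1260-fold higher in the mesoderm progenitors (edgeR adjusted p = 0.0407). Rbm24, an RNA-binding protein of heart muscle, was at 13.7 and 73.1 CPM (at least 286-fold) and Fgf15, an FGF ligand, at 38.3 and 4.75 CPM (at least 142-fold). Hoxb2, described above, was also among them, as were Zcchc12, Peg12, Plxna4 and Ptn, with bounds of 82.7 to 115-fold. Without the unsorted day 2 library, Has2 (0.0769), Rbm24 (0.0610) and Fgf15 (0.0627) were not called. In all, 260 of the 2030 genes called lower had 0 counts in the sorted cells, and 238 of the 2648 called higher had 0 counts in both mesoderm libraries.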

How the data were processed

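Per the labels and the methods of the study, the authors prepared poly-A RNA in a strand-specific way, sequenced it as read pairs, trimmed them with cutadapt (through TrimGalore), aligned them to NCBIM37 with STAR 2.4.2a and deposited raw counts of read pairs per gene, without the between-day adjustment the study applied to its own expression values. The release of their annotation is not given in the sources used here. Reverse-strand counts of 8 libraries were used. Rows for unmapped, multimapping, no-feature and ambiguous pairs stayed out of library sizes, and no-feature pairs were 10.31% to 14.67% of all pairs, or 19.36% in the sorted cells. GENCODE symbols, types and exon lengths for NCBIM37 matched 37205 of 37620 genes, and coordinates are 1-based.

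A gene was tested if 2 or more libraries held 10 or more counts of it (16961 genes). A model with a coefficient for each of 5 groups was fitted in edgeR 4.0.16 (R 4.3.3) with TMM scaling, leaving 3 residual degrees of freedom, and sorted cells were compared with mesoderm progenitors by the quasi-likelihood F test with Benjamini-Hochberg adjustment at 0.05. SE was derived from F, as the absolute log2 fold change over its square root. The procedure was tested on simulated data. CPM are unscaled shares of gene counts with 95% Wilson intervals, which, like the floor of 3 counts, cover counting error only, since the reads carried no molecular identifiers. Nothing in the labels says whether libraries of a group came from separate cultures.

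Groups came from the labels, and days served as the samples of a group. Besides members of 21 lists, the Hox genes among them, the text names the 10 largest rises and 10 largest falls that passed the test, with 10 CPM or more on average in the higher group, a sorted value outside both mesoderm values, protein-coding annotation and a symbol not of the pseudogene, Gm, Rik, Rpl or Rps kinds. Some of these genes are not reported here, although counts over lists include them, and plots by gene show the members that the text names. The comparison, the members and the lists were chosen with earlier results of these data known. Alternatives were DESeq2 1.42.0, median-of-ratios size factors computed in edgeR, library totals without TMM, 2 other filters and unstranded counts. Further alternatives were protein-coding genes only, 2i and 2iJ joined into 1 group, the 3 libraries alone and leaving out each replicate.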

Additional observations from a re-analysis of the deposited data

Results flagged for a closer look

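Shares of read pairs that enter no comparison stood out in the sorted library. Unmapped pairs made up 29.7% of its pairs, against 2.17% to 3.85% in the 7 libraries of R1 cells. Pairs aligned outside annotated genes made up 19.36%, against 10.31% to 14.67%. The sorted cells also had the lowest gene count, 19810855 against 24532587 to 31453888. Neither the content of these pairs nor their part in the differences between the groups was tested.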

How the results depend on the processing

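The number of genes that differed was 4678 and lay between 3708 and 6060 under the 8 alternatives that kept all 8 libraries. With only the 3 libraries compared, which leaves 1 residual degree of freedom, 0 genes passed in edgeR in either direction, members of all lists included, although 4157 had an unadjusted p-value under 0.05 (lowest adjusted p = 0.0542). DESeq2 was not run on the 3 libraries. Leaving out 1 replicate at a time gave 2763 to 5085 genes, 1674 to 2695 higher and 1089 to 2390 lower, with 9 to 13 trophectoderm factors (Cdx2 included, 13 with all libraries), 9 to 13 trophoblast genes and 12 to 29 epithelial genes higher, and 1 to 9 streak factors and 3 to 9 mesenchymal genes lower. The cells were sorted on a Cdx2 reporter, so the place of Cdx2 among the trophectoderm factors was set in advance and is no result. Without Cdx2, 12 of 15 were higher with all libraries. The count of streak factors called lower, 2, was also 4 with 2i and 2iJ joined, 7 in DESeq2, 1 with the filter on the 3 libraries and 5 without a filter on low counts. The cause of these shifts was not tested, except that fewer libraries leave fewer residual degrees of freedom.

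Among the named genes, 16 changed direction in at least 1 fit. When 1 replicate at a time was left out, the log2 fold change ran from -0.733 to 1.186 for Axin2, -0.018 to 0.087 for Ets2, -3.483 to 1.155 for Foxa2, -2.53 to 3.10 for Gsc, -1.985 to 0.034 for Krt19, -1.073 to 3.63 for Nodal, -5.57 to 1.48 for Sp5 and -4.08 to 0.59 for Tbx6, each reversing without day 3. It ran from -4.09 to 0.46 for Bmp4, -1.55 to 0.72 for Cdh3, -0.19 to 3.80 for Esrp1, -1.61 to 0.73 for Gata6, -1.875 to 3.94 for Plac1, -0.883 to 1.03 for Smad7, -3.28 to 2.05 for Snai2 and -2.86 to 2.21 for Tbx20, each reversing without day 4. Axin2 was at 0.047 with the filter on the 3 libraries and 0.012 with those libraries alone, and Ets2 at -0.018 without a filter. None of these was called in the model of all 8 libraries. No paired analysis was possible because the sorted group has 1 library and the labels name no pairing with a mesoderm library. The titles of all 8 libraries carry the same mark, (II), whose meaning they do not give. Depth limits statements on absence to 0.151 CPM in the sorted cells.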
